A study of Mus musculus with 4 samples.

Results

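Genes of macrophages and related myeloid cells were examined in mouse pancreatic islets lacking the retinoblastoma gene Rb1. The set holds 34 genes chosen by name, of which 33 had at least 1 probe matched by accession and 30 had a probe that could be tested, among 26378 genes tested in all. Pancreatic islets are clusters of hormone-secreting cells, and total RNA of whole islets was measured on 4 Agilent arrays of a single colour, with 1 mouse per array. The 2 control arrays held islets of mice of genotype Pdx1-Cre, titled wild type, and the 2 Rb-deficient arrays held islets of genotype Pdx1-Cre:Rbf/f. All 4 mice thus carried the Cre transgene, and ages and sexes were not given in the labels. Pdx1-Cre is driven by a promoter of the pancreatic lineage, from which macrophages do not arise, and the labels name no sort of the isolated islets, so endocrine and other cells were measured together.

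Macrophages live in every islet, close to its blood vessels, and take up material from their surroundings and present it to other immune cells. Growth of the lineage depends on the receptor for colony stimulating factor 1, and its gene program on the transcription factor PU.1. Their surface carries receptors for antibodies, complement and microbial products, many of which signal through small adaptor proteins shared with other myeloid cells.

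Signals are given as log2 of the processed intensity after subtraction of each array's own 75th percentile (taken on all spots that are not controls), so that 0 marks that percentile and 1 unit is a doubling. The 75th percentile lay between 361 and 488 intensity units, no spot was saturated, and the number of arrays limits the precision. Rb1 itself had signals of 0.28 and 0.86 on control arrays 1 and 2 and of -0.48 and -0.90 on Rb-deficient arrays 1 and 2; whether its probe lies in the deleted part is not known here. Control array 1 stood apart, with 76.5% of probes well above background against 59.0% to 59.9% on the others. Of 1416 probes for olfactory and other chemoreceptors, 37.9% were well above background there, against 13.1% to 14.5% on the others. For dim probes this mark was thus less selective on control array 1. On that array Eif2s3y, of the Y chromosome, had a signal of 1.15, and on the other 3 arrays it was not well above background. Kdm5d, Ddx3y and Uty, also of the Y chromosome, were well above background on control array 1 only. Xist, expressed in females, was not well above background there (-7.40) and had -0.84 on control array 2 and -0.65 and -1.35 on the Rb-deficient arrays. By these genes control array 1 was male and the other 3 female, so the control pair was mixed in sex and the Rb-deficient pair was not. Results are therefore given below without single arrays as well. Beta cell genes such as Ins1 were bright, with signals of 9.91, 9.72, 9.81 and 9.36 in the order control 1, control 2, Rb-deficient 1 and Rb-deficient 2. The same order is kept for every set of 4 values below. Genes of the exocrine pancreas were bright as well, such as Cel with 10.00, 9.72, 9.24 and 8.11. Bright Ins1 thus does not show how pure the islets were.

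Most of the macrophage and myeloid genes had their highest signal on Rb-deficient array 2, while Rb-deficient array 1 lay close to the controls. On Rb-deficient array 2, 27 of the 30 tested genes had the highest of the 4 values, against 27.4% of all genes tested. There 27 of the 30 exceeded both controls, against 32.2% of all genes, and 19 were at least 2-fold over the mean of the controls, against 3.41%. On Rb-deficient array 1, 18 exceeded both controls, against 28.2%, and Cd86 alone was at least 2-fold over their mean, against 1.48%. Between the Rb-deficient arrays themselves, array 2 was at least 2-fold the higher in 16 genes, against 3.86% of all genes. The median shift from the control mean was 0.28 on Rb-deficient array 1 and 1.29 on array 2, where the medians over all genes tested were -0.021 and -0.094. In RNA of whole islets, more cells of a type and more RNA per cell cannot be told apart.

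**Figure D1:**
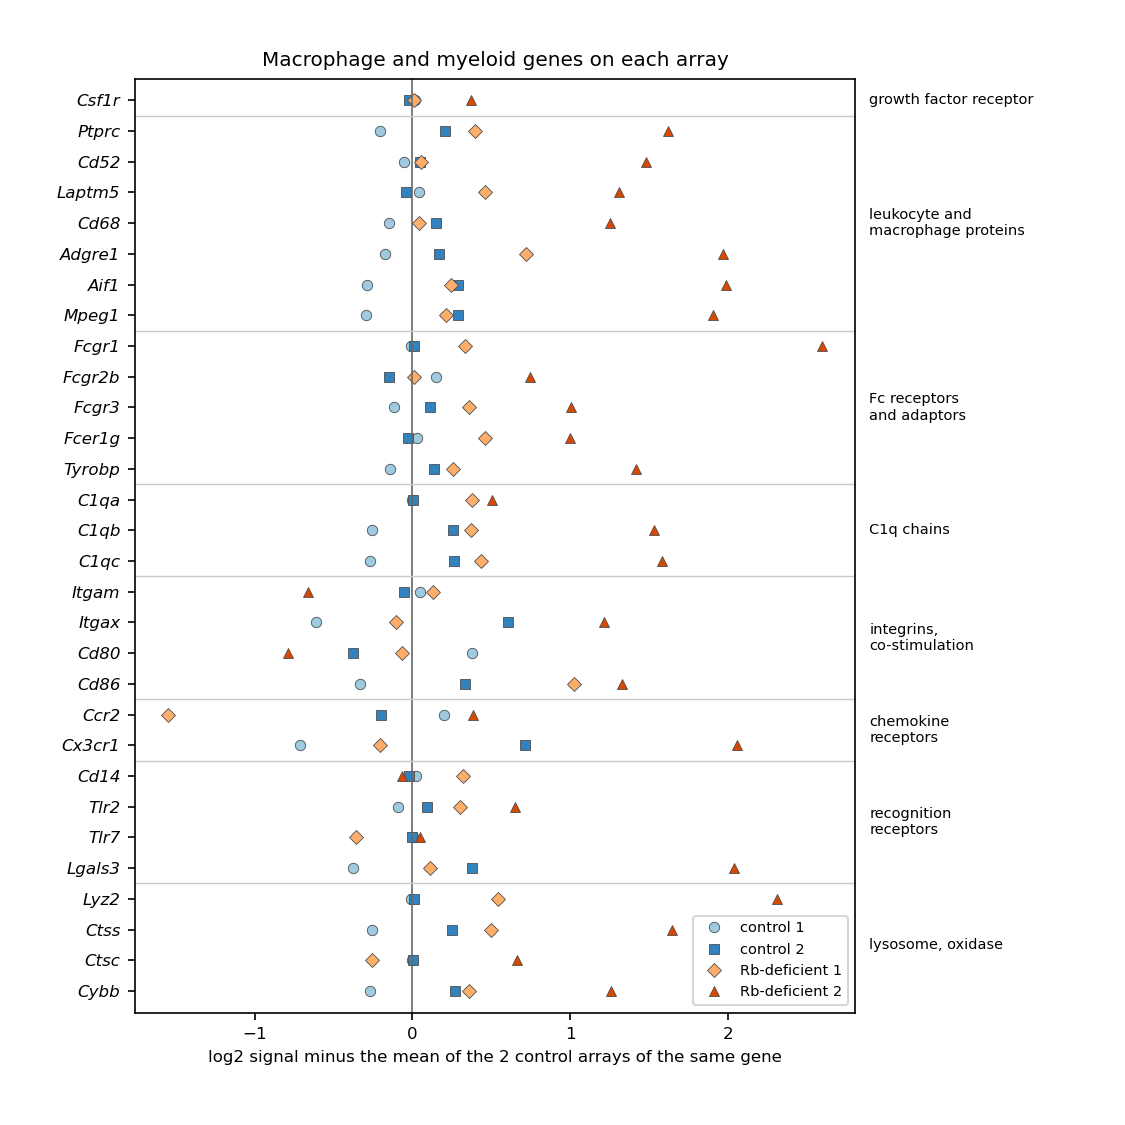
Each point is 1 array, placed by its log2 signal minus the mean of the 2 control arrays for the same gene (x axis), for the 30 tested genes (y axis) grouped by role. The triangles of Rb-deficient array 2 lie at or beyond 1 for 19 genes, and the diamonds of Rb-deficient array 1 for 1 gene.

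The difference between genotypes did not pass the test for any of these genes. By limma, with p-values adjusted across the 26378 genes by the Benjamini-Hochberg method, 0 of the 30 genes were called higher or lower, as were 0% of all genes in each direction, and adjusted p ranged from 0.790 to 0.905. At an unadjusted p under 0.05 there was 1 of the 30, Cd86, against 1.48% of all genes in the upward direction. In mean, 26 of the 30 were higher in Rb-deficient islets, against 41.9% of all genes, and 10 were at least 2-fold higher, against 1.7%, with a median log2 difference of 0.79 against -0.068. The standard errors ran from 0.18 to 0.98, and the spread within the Rb-deficient pair (median SD 0.81, n = 2) exceeded that within the control pair (median SD 0.21, n = 2). With 2 arrays against 2, an exact two-sided permutation test of a single gene cannot give a p below 0.333.

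Both Rb-deficient values lay above both control values for 16 of the 30 genes, against 15.3% of all genes, and below them for 0, against 20.7%. The other 14 overlapped. Of the 30 genes, 27 were well above background on all arrays. Fcgr1 and Cd86, both among the 16 and among those at least 2-fold higher in mean, entered the test through the Rb-deficient pair. Ccr2 entered through the control pair. Among the 27, 14 had both Rb-deficient values over both controls, against 16.2% of all genes held to the same filter. Higher in mean were 24 of the 27, against 44.5%. On Rb-deficient array 2, 17 were at least 2-fold over the mean of the controls, against 3.41% of the 26378 genes. Without Rb-deficient array 2 the median difference was 0.28, and without Rb-deficient array 1 it was 1.26. Leaving out control array 1 gave 0.57, leaving out control array 2 gave 0.83, and background correction by normexp gave 0.47. Scaling to each array's median gave 1.23 and 2 calls, Fcgr1 and Lyz2 (limma, Benjamini-Hochberg adjusted p 0.031 and 0.038), among 234 higher and 246 lower over all genes, whose median it moved to 0.37.

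**Figure D2:**
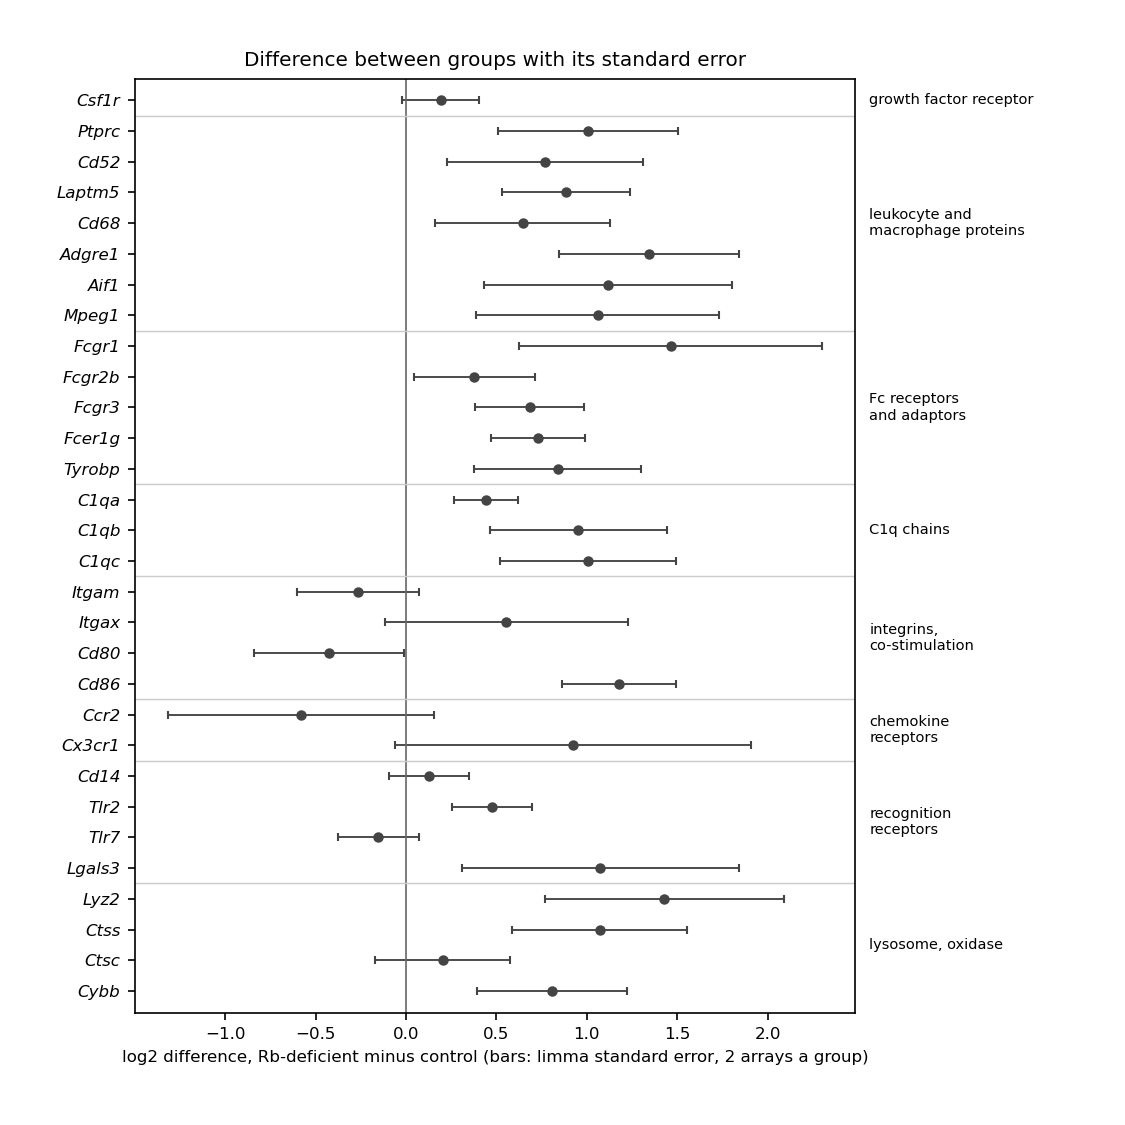
Log2 difference between Rb-deficient and control islets (x axis) for the 30 tested genes (y axis), with bars for limma's standard error from 2 arrays a group. The values run from -0.58 to 1.46 and 26 lie above 0.

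**Figure D3:**
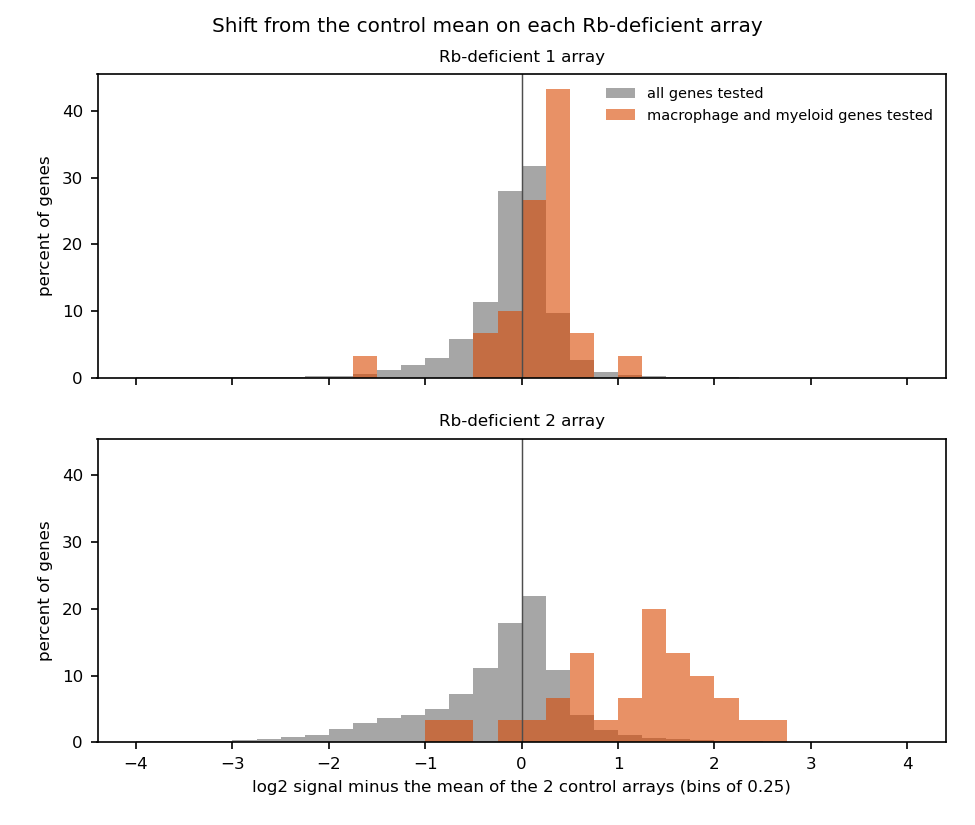
Percent of genes (y axis) by log2 shift from the control mean (x axis, bins of 0.25) on each Rb-deficient array, in grey for all 26378 genes tested and in orange for the 30 macrophage and myeloid genes. The orange bars have medians of 0.28 on array 1 and 1.29 on array 2.

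Of the genes at the root of the lineage only Csf1r could be tested, and its probes disagreed. Csf1r, the receptor of colony stimulating factor 1 that macrophages need to survive, had signals of 2.17, 2.13, 2.16 and 2.52. Rb-deficient array 2 was the highest and Rb-deficient array 1 lay between the controls. Its second probe ran the other way, with -0.82, -1.39, -1.24 and -1.59, and the log2 differences of the 2 probes were 0.19 and -0.31. Spi1, which encodes PU.1, was well above background only on control array 1 and Rb-deficient array 2, with signals of -4.76, -5.47, -6.15 and -5.16, and was not tested.

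General markers of leukocytes and macrophages stood high on Rb-deficient array 2 in their brighter probes. All 7 tested genes of this group had their highest value on Rb-deficient array 2 and were there at least 2-fold over the mean of the controls, with a median shift of 1.62 against 0.25 on array 1. Adgre1, the gene of an adhesion-type receptor widely used to stain mouse macrophages, had signals of -2.18, -1.83, -1.29 and -0.037. The control mean was -2.01 ± 0.24 (SD, n = 2) and the Rb-deficient mean -0.66 ± 0.88 (SD, n = 2), 2.54-fold apart with a standard error of 0.50 on the log2 scale (limma, Benjamini-Hochberg adjusted p 0.863). The groups did not overlap, but the gap between the Rb-deficient arrays was 1.25. A second Adgre1 probe was not well above background on any array.

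Ptprc, which encodes the leukocyte tyrosine phosphatase CD45, had signals of -2.64, -2.22, -2.04 and -0.81. Its second probe disagreed, with -1.61 on control array 1 and -5.26, -4.98 and -4.76 on the others, so that control array 1 was its highest. Laptm5, a lysosomal membrane protein of blood cells, had signals of -2.86, -2.95, -2.45 and -1.59. Both Rb-deficient arrays were above both controls in Laptm5 and in the brighter Ptprc probe.

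Aif1, the gene of the calcium-binding macrophage protein Iba1, had signals of -1.09, -0.51, -0.56 and 1.19. Mpeg1, which encodes the pore-forming protein perforin-2, had -0.44, 0.14, 0.061 and 1.75. In these probes of both genes Rb-deficient array 1 lay between the controls, and array 2 was 1.99 and 1.91 over their mean. A second Mpeg1 probe had -4.56, -4.59, -5.18 and -3.78, with Rb-deficient array 1 under both controls and a log2 difference of 0.095 against 1.06. Cd68, the gene of a lysosomal glycoprotein used to stain macrophages, showed the same order with -1.12, -0.82, -0.93 and 0.28, and its second probe with -3.95, -3.25, -3.32 and -1.64. Cd52, a small glycoprotein of the leukocyte surface, lay at 0.063, 0.16 and 0.17 on the first 3 arrays and at 1.59 on Rb-deficient array 2. Cd53, a leukocyte tetraspanin, was well above background on control array 1 (-4.22) and Rb-deficient array 2 (-4.57) and was not tested.

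Receptors for the constant part of antibodies and their signalling adaptors were higher in mean in 5 of 5 genes, against 41.9% of all genes. In 4 of 5, Fcgr1 with its dim controls among them, both Rb-deficient values were over both controls, against 15.3% of all genes. Fcgr1 encodes the high-affinity receptor for IgG. Its signals were -5.13 and -5.11 on the control arrays, neither well above background, then -4.79 and -2.52. The means were 2.76-fold apart, higher in Rb-deficient islets (log2 means -5.12 and -3.65, limma with Benjamini-Hochberg adjusted p 0.863). The control signals were used as measured, so this is the plain difference and not a lower bound. Over the control mean, Rb-deficient array 1 was 0.33 higher and array 2 was 2.60 higher, in log2. Fcgr1 passed the filter only through the Rb-deficient pair, in which array 2 was the higher, and its log2 difference was 0.36 under normexp.

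Fcgr3, an activating IgG receptor, had signals of -3.71, -3.48, -3.23 and -2.59. Fcgr2b, the inhibitory IgG receptor, had -3.71, -4.01, -3.85 and -3.12. Rb-deficient array 2 was the highest in both, and the groups overlapped for Fcgr2b only. The extracellular parts of these paralogs are alike in sequence, and probes may share signal, which was not tested. Fcer1g, the common gamma chain through which activating Fc receptors signal, had signals of 1.03, 0.97, 1.46 and 2.00. Its log2 difference was 0.73 with a standard error of 0.26. Tyrobp, the adaptor DAP12 of several myeloid receptors, had -0.42, -0.14, -0.018 and 1.14. In these adaptors both Rb-deficient arrays exceeded both controls.

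The 3 chains of C1q, the first component of the classical complement pathway, come from neighbouring genes on chromosome 4 and are made by macrophages in many tissues. In all 3, each Rb-deficient array exceeded each control. C1qa had signals of 1.61, 1.61, 1.99 and 2.11, C1qb had -0.91, -0.39, -0.28 and 0.88, and C1qc had -0.59, -0.055, 0.12 and 1.26. On Rb-deficient array 1 their shifts were alike, at 0.38, 0.37 and 0.44. On array 2 they were 0.50 for C1qa against 1.53 for C1qb and 1.58 for C1qc. C1qa had the smallest standard error of the tested genes, 0.18, around a log2 difference of 0.44 (limma, Benjamini-Hochberg adjusted p 0.863).

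Integrins and co-stimulatory ligands were mixed, with 2 of 4 higher in mean. Cd86, a ligand that co-stimulates T cells, had signals of -5.52, -4.85, -4.16 and -3.86, with control array 1 not well above background. Its log2 difference was 1.18 with a standard error of 0.32 (limma, Benjamini-Hochberg adjusted p 0.790), and 0.18 under normexp. Cd86 passed the filter only through the Rb-deficient pair, so its difference is no support for the set. Another Cd86 probe disagreed, with -4.13 on control array 1 and -5.81, -5.83 and -6.35, none of these 3 well above background. Cd80, the partner ligand of Cd86, had -0.69, -1.45, -1.13 and -1.85, and its groups overlapped with Rb-deficient array 2 the lowest.

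Itgax, the gene of the integrin chain CD11c that islet macrophages carry, had signals of -2.10, -0.88, -1.59 and -0.28. The gap between the controls, 1.22, was nearly that between the Rb-deficient arrays, 1.32. Itgam, the gene of the integrin chain CD11b, had a bright probe with 5.15, 5.05, 5.23 and 4.43, lowest on Rb-deficient array 2. Its second probe lay at -1.03, -1.31, -1.24 and -1.23, with a log2 difference of -0.066. Neither Itgam probe showed the height on Rb-deficient array 2 that 27 of the genes had.

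Both chemokine receptors lay under the mean of the controls on Rb-deficient array 1 and over it on array 2, with overlapping groups. Ccr2, the receptor that brings blood monocytes into tissue, had signals of -3.60, -4.0, -5.35 and -3.41 and was not well above background on Rb-deficient array 1. Cx3cr1, the fractalkine receptor of resident macrophages and some monocytes, had -1.57, -0.14, -1.06 and 1.20. Its controls differed by 1.43 and its Rb-deficient arrays by 2.26, and its standard error of 0.98 was the largest of the 30. A second Cx3cr1 probe followed the same order, with -5.35, -3.22, -4.35 and -2.03, the first of these not well above background.

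Receptors for microbial and altered material were less uniform. Tlr2, a receptor for bacterial lipoproteins, had signals of 0.49, 0.67, 0.88 and 1.23, with each Rb-deficient array over each control. Tlr7, an endosomal receptor for single-stranded RNA, had 0.32, 0.31, -0.046 and 0.36. Cd14, a co-receptor for bacterial lipopolysaccharide, had -2.33, -2.37, -2.03 and -2.41. Its second probe had -2.23, -2.45, -2.38 and -2.19, with Rb-deficient array 2 the highest. On Rb-deficient array 2 the shifts of Tlr7 and Cd14 in their tested probes were 0.050 and -0.065, among the smallest in the set.

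Lgals3, the gene of the galactose-binding lectin galectin-3, had signals of -1.57, -0.81, -1.08 and 0.85. It stood 2.04 over the mean of the controls on Rb-deficient array 2 and 0.11 over it on array 1, and its second probe gave 1.06 and -0.15. Msr1, a scavenger receptor, was well above background only on control array 2 (-2.87) in 1 of its 2 probes and on no array in the other. Clec7a, the gene of the fungal glucan receptor dectin-1, had no probe matched by accession.

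Lysosomal enzymes and the phagocyte oxidase were higher in mean in 4 of 4 genes. Lyz2, the lysozyme gene of macrophages, had signals of -2.57, -2.55, -2.01 and -0.25. The control mean was -2.56 ± 0.012 (SD, n = 2) and the Rb-deficient mean -1.13 ± 1.25 (SD, n = 2), 2.69-fold higher (limma, Benjamini-Hochberg adjusted p 0.863). Its near-identical copy Lyz1 could share signal with this probe, which was not tested. Ctss, which encodes the protease cathepsin S of the antigen-processing pathway, had 1.82, 2.33, 2.57 and 3.72, and its groups did not overlap. Cybb, the catalytic subunit of the superoxide-forming NADPH oxidase, had -4.13, -3.59, -3.50 and -2.60. Its second probe had -4.40, -4.76, -4.53 and -3.68, with overlapping groups and a log2 difference of 0.47 against 0.81. Ctsc, cathepsin C, had -1.57, -1.56, -1.82 and -0.90, with Rb-deficient array 1 the lowest.

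The letters of the site of PU.1, the lineage factor named above, were looked up in the 250 bases upstream of RefSeq gene starts (build GRCm38.p6). Promoters were available for 24 of the 34 genes. The core GAGGAA, on either strand, was present in 13 of the 24, or 54.2%, against 25.9% of 27025 genes with a promoter. The related core GGAAGT was present in 10, or 41.7%, against 22.2%, and the longer GAGGAAGT, which contains both, in 2, or 8.33%, against 2.79%. These are matches of letters only, and no binding was measured. The genes were listed by name as myeloid, and a relation of the letters to the array signals was not tested. GAGGAA was also present in Cd68, Aif1, Itgam and Ctsc, whose groups overlapped. The following stretches of 60 bases are from the genes with GAGGAA whose Rb-deficient values both exceeded both controls. They were thus picked by their signals and show no link between letters and signal. Capitals mark GAGGAA or its reverse complement TTCCTC, and the sequences read along the gene's strand.
Laptm5 (chr4:130913251-130913310, plus strand): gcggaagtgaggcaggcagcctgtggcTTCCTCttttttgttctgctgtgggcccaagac
Fcgr1 (chr3:96293992-96294051, minus strand): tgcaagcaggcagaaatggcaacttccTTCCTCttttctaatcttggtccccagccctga
Fcgr3 (chr1:171059404-171059463, minus strand): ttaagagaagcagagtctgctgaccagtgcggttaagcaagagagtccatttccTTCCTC
C1qb (chr4:136886201-136886260, minus strand): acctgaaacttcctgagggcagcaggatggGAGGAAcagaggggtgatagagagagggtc
C1qc (chr4:136893075-136893134, minus strand): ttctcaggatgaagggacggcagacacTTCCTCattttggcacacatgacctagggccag
Ctss (chr3:95526595-95526654, plus strand): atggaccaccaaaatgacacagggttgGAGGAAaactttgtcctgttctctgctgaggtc
Ptprc (chr1:138175431-138175490, minus strand): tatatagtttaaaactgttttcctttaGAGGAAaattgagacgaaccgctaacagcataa
The match lay 38 and 55 bases upstream of the start in Laptm5 and Fcgr1 and 193 bases upstream in C1qc. The longer GAGGAAGT was matched in C1qc, on the opposite strand, and in Ctsc, whose groups overlapped.

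Other genes of myeloid cells were compared from a further list of 32, of which 29 were tested. Of these 21 were higher in mean, 9 had both Rb-deficient values over both controls (15.3% of all genes) and 5 had both under them (20.7% of all genes), and 0 were called by limma, with 2 higher and 1 lower at an unadjusted p under 0.05. The median shift was 0.088 on Rb-deficient array 1 and 0.79 on array 2. Fcgr4, another activating IgG receptor, had signals of -3.26, -3.21, -2.52 and -1.75. Clec4a2, a C-type lectin receptor, had -4.85, -4.86, -4.13 and -3.91. In each, both Rb-deficient values were over both controls. Lyn, a kinase also found outside the myeloid lineage, had 3.25, 2.83, 2.26 and 2.23, below both controls.

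Of 6 tested genes for proteins that attract or sustain myeloid cells, 5 were higher in mean and 0 were called. Ccl8, a monocyte chemoattractant, had signals of -5.13, -5.93, -3.64 and -2.14 and was at least 4.91-fold higher, with both controls not well above background (limma, Benjamini-Hochberg adjusted p 0.730). Ccl7, a related chemokine, had -5.50, -5.48, -3.65 and -4.04 and was at least 2.60-fold higher (limma, Benjamini-Hochberg adjusted p 0.464). Both passed the filter only through the Rb-deficient pair and were well above background on both of its arrays. Genes of MHC class II, with which islet macrophages present antigen, were higher in mean in 7 of 7 and highest on Rb-deficient array 2 in 7 of 7, with median shifts of 0.25 and 1.09. Cd74, the invariant chain, had 2.05, 2.69, 2.69 and 3.53.

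Markers of other cells also differed on Rb-deficient array 2. Acinar genes, of the enzyme-secreting exocrine pancreas, were lower in mean in 10 of 10, with median shifts of -0.22 and -1.0, and their summed signal was 7255 and 5973 times the 75th percentile on the controls, 5523 on Rb-deficient array 1 and 3225 on array 2. Cel, an acinar lipase, had signals of 10.00, 9.72, 9.24 and 8.11. Beta cell genes had median shifts of 0.10 and -0.085. Their summed signal was 3445, 3067, 3314 and 2336 times the 75th percentile, also lowest on Rb-deficient array 2. The summed signal of the macrophage and myeloid genes was 58.9, 60.5, 67.5 and 78.2 times the 75th percentile, and 23.5, 27.4, 30.0 and 56.6 times without Itgam, in both cases in the opposite order to the acinar genes. The part of these other cells in the result was not tested.

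Lists of other blood and stromal cells were described in the same way, and their difference from the macrophage genes was not tested. Only 5 of 11 neutrophil genes could be tested, with median shifts of -0.26 and 0.92 and 2 of 5 higher in mean. Among them S100a9, a calcium-binding protein abundant in neutrophils and monocytes, had signals of -3.05, -4.22, -4.75 and -0.88, and Camp had -2.93, -2.87, -2.64 and -1.97. Csf3r went the other way on Rb-deficient array 2, with 5.75, 5.41, 5.54 and 4.54, and Elane, lower in mean, had 1.46, 1.25, 1.09 and 1.32. Of 6 T and NK cell genes tested, 4 were higher in mean, with median shifts of 0.014 and 0.40, and of 5 B cell genes 3, with -0.23 and -0.19. The 6 dendritic cell genes had median shifts of -0.13 and -0.27, with 2 higher in mean and no well above background signal for Xcr1 on any array. In the monocyte list 2 of 5 were higher in mean, with median shifts of 0.064 and -0.55. Within it Chil3, a chitinase-like protein of activated macrophages, had -5.94, -5.78, -3.83 and -2.77 and was at least 3.79-fold higher (limma, Benjamini-Hochberg adjusted p 0.516). Neither Chil3 control was well above background, and Chil3 passed the filter only through the Rb-deficient pair, so its difference is no support for the set. Endothelial genes were higher in mean in 7 of 7 and highest on Rb-deficient array 2 in 7 of 7, with median shifts of -0.015 and 0.38, and erythroid genes in 3 of 3, with -0.12 and 0.87. Of the fibroblast and pericyte genes 2 of 6 were higher in mean and 6 of 6 highest on Rb-deficient array 2, with median shifts of -0.67 and 0.52, and of the ductal genes 1 of 6, with -0.28 and -0.69. For adipocytes only Lep could be tested, with shifts of -0.33 and -0.53.

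**Figure D4:**
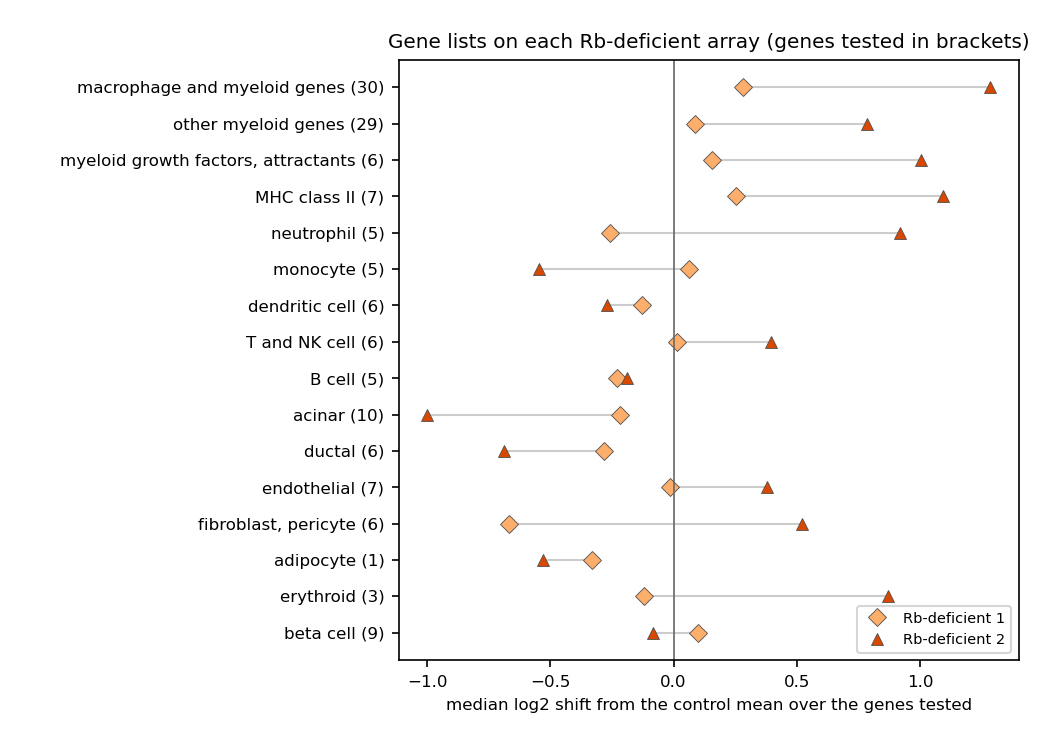
Median log2 shift from the control mean (x axis) over the tested genes of each list (y axis, number tested in brackets), as a diamond for Rb-deficient array 1 and a triangle for array 2. The macrophage and myeloid genes run from 0.28 to 1.29 and the acinar genes from -0.22 to -1.0.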

How the data were processed

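The 4 deposited scanner files came from Feature Extraction 12.0.3.1 by Agilent, per the file headers; the authors' processed intensity had its background subtracted and was not scaled between arrays, and the probe design used mm9. Per the labels' protocols, RNA was amplified with a whole-transcriptome kit and labelled with Cy3. A deposited value table gave the same intensity times 1 constant per array (2.44, 2.15, 2.49 and 1.74, with column medians of 220.06, 180.7, 188.3 and 157.33); how the constants were set stays unknown. It served as an alternative.

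Accessions named 32994 of 56605 probes (58.3%) through RefSeq genes of GRCm38.p6. Control and outlier spots were left out, spots of a probe were averaged, probes were kept when well above background on both arrays of a group, and the brightest probe stood for its gene. All 4 arrays shared a slide, so no batch fit could be made. limma 3.58.1 in R 4.3.3 (lmFit, eBayes, no covariates, 2 residual and 1.82 prior degrees of freedom) was tested on simulated data first; calls used an adjusted p under 0.05. A bound takes, per array of the dim group, the higher of the lowest signal well above background and the probe's own. The files hold no mean spot signal, so normexp (offset 50) used the median signal. Members and lists were chosen with earlier results of these data known. Every member may be named, and of other lists at most 4 genes with the smallest p. Replicates were separate mice. Alternatives were background correction, scaling, filters, probe averaging, a replicate block and leaving out arrays; scaling over probes in place of spots was chosen after seeing the data.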

Additional observations from a re-analysis of the deposited data

How the results depend on the processing

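The direction of the median difference held in all 14 alternatives, and of 417 single-gene values 14 changed sign, in 10 of the 30 genes. Not all of these values were free to move. The replicate block cannot change a difference in this balanced design, and the filter settings left the single-gene differences as they were. Scaled to each array's median, limma called 2 of these genes, Fcgr1 and Lyz2 (Benjamini-Hochberg adjusted p 0.031 and 0.038), among 234 higher and 246 lower over all genes. That scaling moved the median of all genes from -0.068 to 0.37 and that of these genes to 1.23. The distance between the 2 medians was 0.86 under both, which is fixed because such scaling shifts all genes alike. Itgam, Cd80 and Tlr7 then stood at 0.17, 0.012 and 0.28. Averaging a gene's probes gave -0.059 for Csf1r and -0.21 for Ptprc, normexp gave -0.016 for Cd14, and quantile normalization gave 0.10 for Ccr2. With single arrays left out, 18 to 28 genes had non-overlapping groups upward, where the smaller group makes this easier (21.9% to 33.1% of all genes), the median ran from 0.28 to 1.26, and the calls over all genes were 0 to 17 higher and 0 to 4074 lower, the upper ends without control array 2. A lone array is there assumed to vary like the other group. Without Rb-deficient array 2, Itgam, Itgax, Cx3cr1, Ctsc, Ccr2 and Tlr7 stood at 0.13, -0.10, -0.21, -0.25, -1.55 and -0.36, and without array 1 at -0.66, 1.21, 2.06, 0.66, 0.39 and 0.050; without control array 1 Itgax stood at -0.055. The cause was not tested. Samples share only a replicate number; with it as a replicate block the median was 0.79, 0 genes were called and 9 had an unadjusted p under 0.05 (same-numbered deviations correlated at 0.30 across genes).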
